A study of Paeonia ostii with 18 samples.

Results

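Among the probes of the tree peony array, 158 of 14949 (1.06%) were higher after every length of chilling than before it. The members were chosen from the deposited log2 values by 2 conditions: each of the 15 arrays of chilled buds lay above each of the 3 arrays of unchilled buds, and the mean of the 15 exceeded the mean of the 3 by at least 0.8. The first condition alone was met by 462 probes (3.09%), and 415 probes (2.78%) lay below the 0 d arrays on every chilled array. The second alone was met by 769 probes, of which 611 had at least 1 chilled array that overlapped the 0 d arrays. Since the difference from 0 d chose the members, it is given here as a description with no test. Tests were made only between chilled times, which the rule did not contrast, although it set a floor under every chilled array. Just inside the threshold were CUST_5015 at 0.804 and CUST_10219 at 0.804. Just outside it were CUST_12972 at 0.797 and CUST_2727 at 0.797.

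Flower buds of 4-year-old Paeonia ostii 'Feng Dan Bai' had been kept at 0 to 4 °C for 6, 12, 15, 18 or 24 d, or for 0 d. The labels place 6, 12 and 15 d, like 0 d, in endo-dormancy, 18 d at endo-dormancy release and 24 d in eco-dormancy. Each time had 3 biological replicates, each pooled from 3 plants, on 18 single-channel arrays in all. Probes for flower bud, green tissue and dividing cells (3, 7 and 15) were well above background on all 18 arrays, and none was a member. Their descriptions came from probes that the study had mainly chosen as changing on these arrays, so their shifts are not independent evidence. The 7 green tissue probes all had lower means in chilled buds, by 0.28 to 1.53. In 4 of them every chilled array lay below every 0 d array, as in 2.78% of all probes. Their summed signal was 14.90 to 15.84 on chilled arrays and 15.95 to 16.04 on 0 d arrays. The 3 flower bud probes had higher means, by 0.36 to 1.37, with summed signals of 16.33 to 17.17 on chilled arrays and 16.22 to 16.44 on 0 d arrays. These sums were mostly the signal of AS1, with means of 16.15 at 0 d and 16.51 in chilled buds. Whether AS1 is particular to flower buds was not tested, so the sums are no measure of flower bud tissue. The other probes, BPEp and AGL20, had means of 11.52 and 12.05 at 0 d. Of the 15 for dividing cells, 10 had higher and 5 had lower means, with summed signals of 18.59 to 20.12 on chilled and 18.72 to 19.64 on 0 d arrays. These 15 were picked by words in their descriptions. They took in a tetracycline antiporter (CUST_8420) and a Tubby-like F-box protein (CUST_5746), neither of them a cyclin or core histone. Both were among the 5 with lower means. The words missed core histone probes described as HTB genes, with differences of 0.92 (CUST_4581), 1.13 (CUST_5339), 0.96 (CUST_75), 0.15 (CUST_4213) and -0.66 (CUST_12291). They also missed the cyclins CYCD1;1 at 0.09 and CYCD3;1 at -0.42, so the split into higher and lower depends on the words used. The part of these shifts in the members' rise was not tested. Whole buds were measured, so that more cells of a type and more RNA per cell cannot be told apart.

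Buds of woody plants enter a rest in winter in which growth does not resume even in warm conditions, and a period of cold ends it. Gibberellin signalling, sugar use, protein turnover and cell division are among the processes known to change in buds during this time. Gibberellin acts by causing the DELLA proteins, nuclear repressors of growth, to be tagged with ubiquitin and broken down by the proteasome. Members with known roles were found in several of these processes.

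The rise was moderate in most members. Over the 158, the mean difference between chilled and unchilled buds in the deposited values ran between 0.80 and 8.34, with a median of 1.03. It was at least 1 in 87 members, at least 1.5 in 14 and at least 2 in 3. All values from here on are log2 signals recomputed from the scanner files and quantile-normalized, in which the same 158 kept every chilled array above every 0 d array, and 11 fell short of the difference of 0.8. On this scale the median difference was 1.02, a 2.03-fold rise. Members were dimmer at 0 d than the array as a whole, with a median level of 9.43 against 10.7 over all probes, and their median SD within times was 0.293 against 0.333.

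Many members were dim at 0 d. Well above background on all 3 of the 0 d arrays were 112 members (70.9%, against 81.3% of all probes), on 2 of them 17, on 1 of them 10 and on none of them 19. After chilling, 134 members (84.8%) were above background on all 15 arrays, against 77.9% of all probes. For the 19 dim members a fold can be given only as a lower bound, the chilled mean against the higher of the probe's own 0 d signal and the lowest signal among probes above background. A bound above 1 was reached by 8 of them, between at least 1.06-fold and at least 2.43-fold. The 112 members above background on every array had a median difference of 0.999. The array of 0 d replicate 3 had the fewest probes above background, 82.2% of all and 72.2% of the members, against 85.3 to 96.5% of all probes on the other arrays. Without it 315 probes met the rule, 121 of them among the 158.

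The rule required a rise on every 6 d array, and the members' median difference from 0 d was highest at 18 d. Between 18 and 15 d limma called 0 members at an adjusted p under 0.05. The 158 members exceeded 0 d by a median of 0.81 at 6 d. This median was 0.99 after 12 d of chilling, 1.07 after 15 d, 1.24 after 18 d and 1.03 after 24 d, while the median over all probes lay between 0.02 and 0.05 at these times. At 6 d a member had reached 65.4% of the difference at its own highest time (median, with quartiles of 54.3 and 72.4%). The highest time was picked from means that vary by noise, so a steady level would also give a share below 100%. No comparison with a steady level was made. The smallest such share was 36.2%, in the cytochrome P450 probe CUST_1198.

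**Figure D1:**
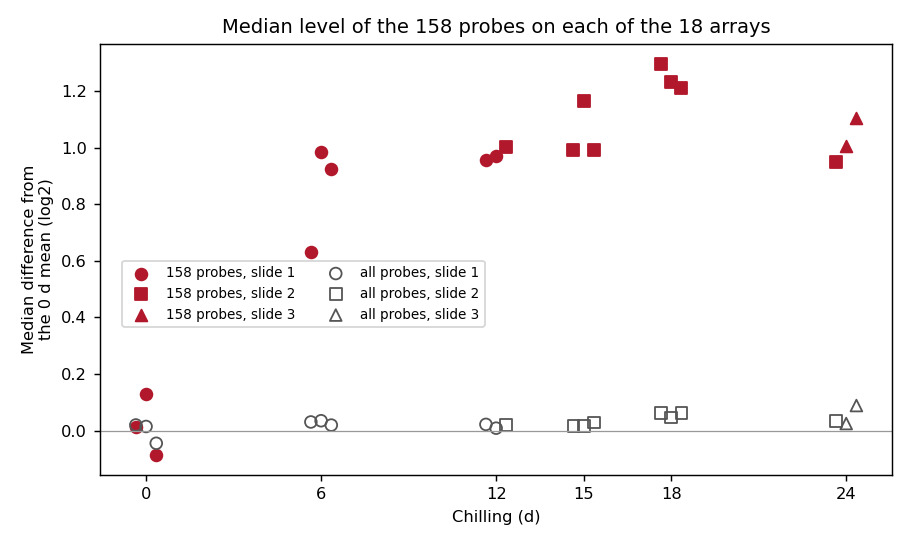
Median over the 158 probes (filled) and over all probes (open) of the log2 difference from the 0 d mean, on the y axis, for each array, with days of chilling on the x axis and the slide as marker shape. The 15 chilled arrays lie between 0.63 and 1.30, the 18 d arrays between 1.21 and 1.30, and the 0 d arrays between -0.09 and 0.13.

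Array by array, the members' median difference from the 0 d mean was 0.63, 0.99 and 0.93 at 6 d, 0.96, 0.97 and 1.003 at 12 d, and 0.99, 1.16 and 0.99 at 15 d. It was 1.30, 1.23 and 1.21 at 18 d and 0.95, 1.01 and 1.10 at 24 d. Replicate 1 of 6 d was the lowest of the chilled arrays, and the 3 arrays of 18 d were the highest. All 0 d arrays lay on slide 1, which also held the 6 d arrays and replicates 1 and 2 of 12 d. Within slide 1 the 5 chilled arrays exceeded the 0 d arrays by a median of 0.88, with members between 0.44 and 7.59. The rule had already placed these 5 arrays above the 0 d arrays in every member, so an effect of slide was not tested. The 15 and 18 d arrays, replicate 3 of 12 d and replicate 1 of 24 d shared slide 2, where the 18 d arrays again had the highest medians.

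Descriptions of the closest protein in other species were at hand for 73 of the 158 members (46.2%, against 25.1% of all probes). They come from tables of probes that the study chose as changing, so the larger share is no finding about the members. A protein name, Arabidopsis symbol or functional category was given for 26 members, whose differences lay between 0.79 and 2.05. The other 47 described members matched unnamed proteins, and 85 members had no description.

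**Figure D2:**
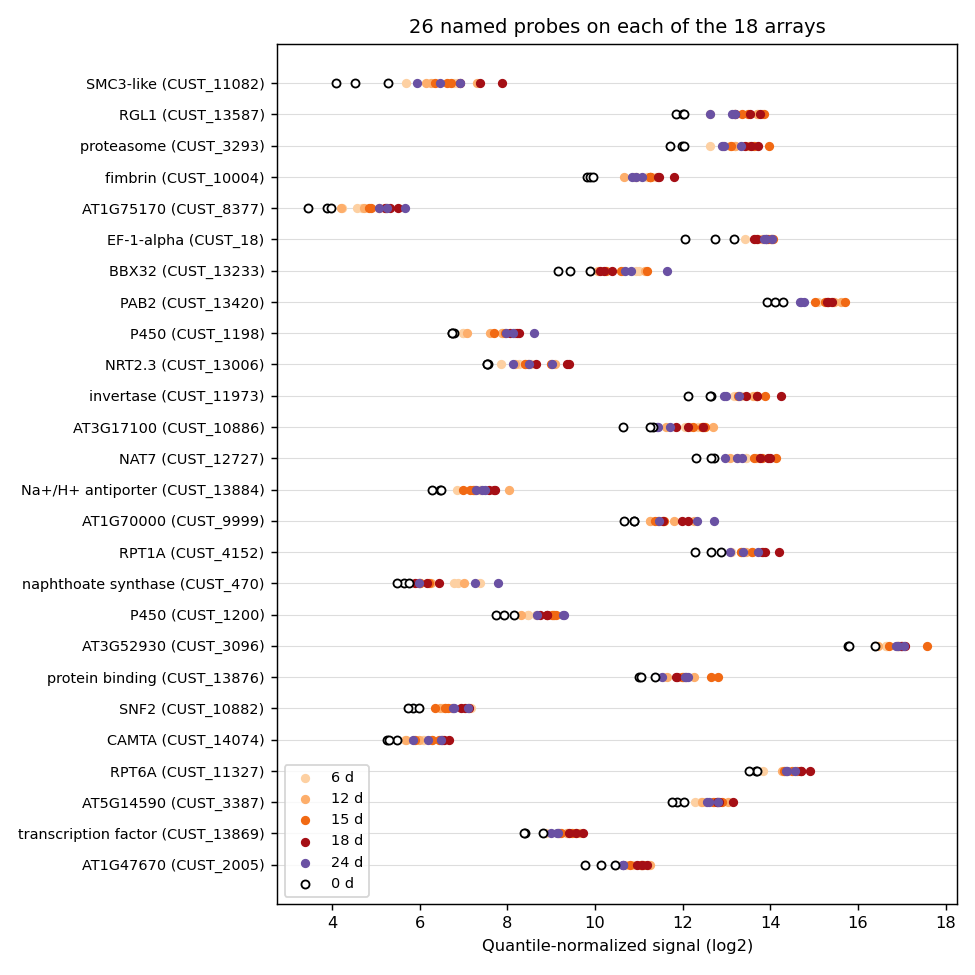
Quantile-normalized log2 signal (x axis) of the 26 named probes (rows, ordered by the chilled minus 0 d difference) on each of the 18 arrays, coloured by chilling time, with 0 d as open circles. In each row every chilled array lies right of the 0 d arrays, and the differences in means lie between 0.79 and 2.05.

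The gibberellin pathway was represented by the DELLA repressor RGL1 and by AT1G70000, a MYB-like transcription factor in Arabidopsis. RGL1 is the member for which the study's primers tie the probe to a sequence. Both primers are shown 5′ to 3′ because they mark the transcript that this probe stands for, and none of their letters is capitalised.
RGL1 first primer: tgttcagcaagataatctcaagttggc
RGL1 second primer: ggtaggggcaggtttcatagaagtg
The primers have 27 and 25 bases, of which 40.7% and 52% are G or C.

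RGL1 (CUST_13587) had signals of 12.61, 13.19 and 13.18 at 6 d, 13.71, 13.81 and 13.69 at 12 d, 13.50, 13.36 and 13.85 at 15 d, 13.77, 13.53 and 13.18 at 18 d, and 12.63, 13.20 and 13.13 at 24 d, against 11.84, 12.01 and 12.03 at 0 d. The 0 d arrays were close together, and RGL1 was highest at 12 d and lowest among chilled times at 24 d. The chilled mean exceeded that of 0 d by 1.40, or 2.63-fold. Between 24 and 18 d the difference was -0.51, which did not pass (limma adjusted p = 0.34). AT1G70000 (CUST_9999) ran between 11.26 and 12.72 in chilled buds (median 11.56), against 10.89, 10.67 and 10.89 at 0 d, a difference of 0.93. Its mean was highest at 24 d. Of the 51 probes of the gibberellin list, 2 (3.92%) had every chilled array above 0 d and 1 (1.96%) had every chilled array below it. These shares were close to the 3.09 and 2.78% of all probes. The other DELLA probes overlapped 0 d, with differences of 0.54 for GAI and -0.81 for RGA1.

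Proteasome subunits supplied 3 members. The proteasome breaks down ubiquitin-tagged proteins, and RPT1A and RPT6A are ATPases of its regulatory cap that unfold them. The probe CUST_3293, placed in the proteasome category with no subunit name, ran between 12.62 and 13.96 in chilled buds (median 13.20), against 11.99, 11.70 and 12.04 at 0 d. RPT1A (CUST_4152) ran between 13.08 and 14.20 (median 13.44) in chilled buds, against 12.27, 12.87 and 12.64 at 0 d, a difference that was 0.62 with normexp background correction. RPT6A (CUST_11327) ran between 13.84 and 14.90 (median 14.38), against 13.66, 13.70 and 13.50 at 0 d. All 3 were bright on every array, and the quantile-normalized differences were 1.36, 0.92 and 0.83. All 3 had their highest mean at 18 d and their lowest chilled mean at 6 d. Of 49 proteasome and ubiquitin probes, 5 (10.2%) had every chilled array above 0 d and 1 (2.04%) had every chilled array below it, against 3.09 and 2.78% of all probes. The other 2 of the 5 were the core particle subunits PAD2 at 0.59 and PBC1 at 0.29. This list, like all those below, came from probes that the study had chosen as changing on these arrays, so its share is not independent evidence.

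Sugar use and energy metabolism supplied an invertase, an aldolase and an isocitrate dehydrogenase. The invertase (CUST_11973), which splits sucrose into glucose and fructose, ran between 12.95 and 14.25 in chilled buds (median 13.61), against 12.13, 12.65 and 12.61 at 0 d. Its difference was 1.04, and its mean was 13.80 at 18 d and 13.07 at 24 d, the lowest of the chilled times. AT3G52930, a fructose-bisphosphate aldolase of glycolysis in Arabidopsis, had 16.46 to 17.56 in chilled buds (median 16.90), against 15.77, 15.80 and 16.38 at 0 d. The NADP-dependent isocitrate dehydrogenase AT5G14590 ran between 12.27 and 13.15 (median 12.71), against 11.86, 12.03 and 11.75 at 0 d. These differences were 0.90, or 0.51 with normexp, and 0.82. Of 43 probes for glycolysis, the citrate cycle and starch, 8 (18.6%, against 3.09% of all probes) had every chilled array above 0 d and none had every chilled array below it (against 2.78%). Those that did not reach the threshold on the deposited values included a phosphofructokinase, the enzyme of the committed step of glycolysis, at 0.79 (CUST_10254), the pyruvate dehydrogenase subunit MAB1 at 0.58, PKP-ALPHA, a plastid pyruvate kinase subunit, at 0.55 and enolase at 0.52 (CUST_13855). The median of the list was 0.35, against 0.03 over all probes.

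**Figure D3:**
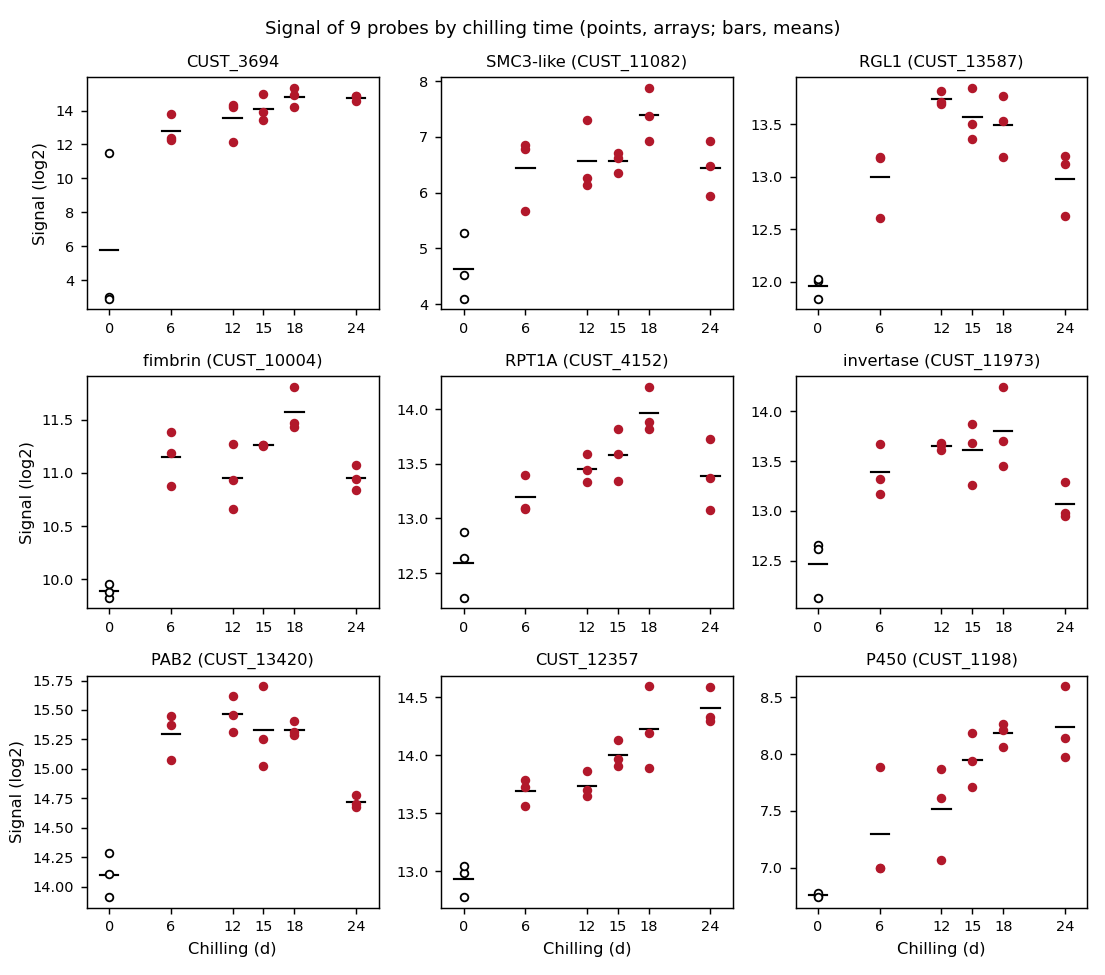
Quantile-normalized log2 signal (y axis, scaled per panel) against days of chilling (x axis) for 9 probes, with 0 d arrays as open points, chilled arrays filled and time means as bars. RGL1 and PAB2 have their lowest chilled means at 24 d, 12.98 and 14.72, and CUST_12357 and the P450 probe CUST_1198 their highest, 14.40 and 8.24.

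Transporters supplied 5 members. NRT2.3 (CUST_13006), a nitrate transporter, ran between 7.86 and 9.41 in chilled buds (median 8.49), against 7.57, 7.53 and 7.53 at 0 d, a difference of 1.08. NAT7 (CUST_12727), a nucleobase-ascorbate transporter family member, ran between 12.96 and 14.14 (median 13.62), against 12.30, 12.72 and 12.65, or 2.01-fold. A Na+/H+ antiporter (CUST_13884), which exchanges sodium for protons across membranes, differed by 0.97, or 0.58 with normexp, and the amino acid transporter AT1G47670 by 0.79. AT1G75170 was not above background at 0 d and was above it on 7 of 15 chilled arrays, so no fold is given. Of the 151 transporter probes, 10 (6.62%, against 3.09%) had every chilled array above 0 d and 2 (1.32%, against 2.78%) had every chilled array below it.

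Members linked to chromosomes, chromatin and the cytoskeleton were led by an SMC3-like probe. SMC3 is a subunit of cohesin, the ring that holds sister chromatids together. The SMC3-like probe (CUST_11082) had 5.68, 6.78 and 6.85 at 6 d, 7.30, 6.27 and 6.14 at 12 d, 6.35, 6.71 and 6.62 at 15 d, 7.88, 7.37 and 6.93 at 18 d, and 6.92, 5.94 and 6.47 at 24 d, against 4.10, 5.28 and 4.52 at 0 d. It was dim, above background on 1 of the 3 0 d arrays and on all 15 chilled arrays, and its difference was 2.05, or 0.84 with normexp. With its dim 0 d arrays raised to the lowest signal above background, it was at least 2.41-fold higher in chilled buds. Fimbrin (CUST_10004), which bundles actin filaments, ran between 10.66 and 11.81 in chilled buds (median 11.25), against 9.82, 9.88 and 9.96 at 0 d, a difference of 1.29. An SNF2 chromatin remodelling helicase (CUST_10882) differed by 0.87, or 0.42 with normexp, and was above background on 2 of the 3 0 d arrays. SMC3 was the 1 of 40 cell division probes (2.5%, against 3.09% of all probes) with every chilled array above 0 d. Of the 40, 2 (5%, against 2.78%) had every chilled array below it. The 40 also took in the antiporter CUST_8420 and the F-box probe CUST_5746. Of the 16 core histone probes none (against 3.09%) had every chilled array above 0 d and 1 (6.25%, against 2.78%) had every chilled array below it. Fimbrin was the 1 of 10 cytoskeleton probes (10%, against 3.09%) with every chilled array above 0 d, and 1 (10%, against 2.78%) had every one below. In this list the tubulin probe CUST_962 (TUB8) differed by 1.27 with overlapping arrays.

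Transcription factors supplied 4 members outside the gibberellin list. BBX32 (CUST_13233), a B-box protein of light signalling in Arabidopsis, ran between 9.89 and 11.65 in chilled buds (median 10.65), against 9.16, 9.87 and 9.42 at 0 d. The lowest chilled array was thus only just above the highest 0 d array. The difference was 1.15, with a mean of 10.24 at 18 d, the lowest chilled time, and 11.05 at 24 d. The CAMTA probe (CUST_14074), of the calmodulin-binding activators that take part in early cold responses in Arabidopsis, ran between 5.66 and 6.68 (median 6.18), against 5.25, 5.47 and 5.30 at 0 d. It was above background on 1 of the 3 0 d arrays, with a difference of 0.84, or 0.34 with normexp. AT3G17100 differed by 1.03, and the probe CUST_13869, described only as a DNA-binding transcription factor, by 0.80. Of 192 transcription factor probes, 5 (2.60%, against 3.09% of all probes) had every chilled array above 0 d and 15 (7.81%, against 2.78%) had every chilled array below it.

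In RNA binding and translation, PAB2, a poly(A)-binding protein that coats the tails of messenger RNAs, was represented by a pair of members. The probe named PAB2 (CUST_13420) ran between 14.67 and 15.70 in chilled buds (median 15.31), against 13.91, 14.11 and 14.29 at 0 d. CUST_12944, which shares its best-matching grape protein, ran between 11.25 and 12.74 (median 11.98), against 10.14, 10.67 and 10.17 at 0 d. The differences were 1.12 and 1.68. The elongation factor EF-1-alpha (CUST_18), which brings aminoacyl-tRNAs to the ribosome, ran between 13.42 and 14.07 (median 13.85), against 12.73, 13.17 and 12.04 at 0 d. Its difference of 1.18 became 0.88 without replicate 3 of 0 d. The probe CUST_1941 has the same best-matching Arabidopsis protein, and its difference was 0.03 with overlapping arrays, so the EF-1-alpha probes did not move alike. Of 85 translation and ribosome probes, 3 (3.53%, against 3.09%) had every chilled array above 0 d and 2 (2.35%, against 2.78%) had every chilled array below it.

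Cytochrome P450s are a family of oxygen-adding enzymes with many roles in plant metabolism. Of 7 P450 probes, 2 (28.6%, against 3.09% of all probes) had every chilled array above 0 d, and both were members. In 0 (against 2.78%) every chilled array lay below it. CUST_1198 and CUST_1200 share a best-matching castor bean protein and may measure the same or closely related transcripts. CUST_1198 ran between 6.99 and 8.60 in chilled buds (median 7.94), against 6.75, 6.78 and 6.74 at 0 d, a difference of 1.08. This difference was 0.56 within slide 1, the slide of the 0 d arrays, and 0.67 with normexp. CUST_1200 ran between 8.31 and 9.30 (median 8.90), against 7.75, 7.93 and 8.15, a difference of 0.91. Both had their lowest chilled mean at 6 d and their highest at 24 d. The P450 probes CUST_9774 and CUST_4263 had differences of 1.03 and 0.91 with overlapping arrays. The last of the named members were a naphthoate synthase, an enzyme of phylloquinone synthesis (CUST_470, 0.91, or 0.41 with normexp), and a protein binding protein (CUST_13876, 0.89). Of 152 probes for responses to abiotic stimulus, which included PAB2 and the aldolase, 10 (6.58%, against 3.09%) had every chilled array above 0 d and 8 (5.26%, against 2.78%) had every chilled array below it. Of 25 probes for DNA replication and repair, 2 (8%, against 3.09%) lay above on every chilled array and 0 (against 2.78%) lay below. Both of the 2 were below the threshold, KU80 at 0.60 and RAD23 at 0.61.

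The largest differences belonged to members without a protein name. CUST_3694, which matches a poplar protein of unknown function, had 12.37, 13.79 and 12.25 at 6 d, 14.35, 14.20 and 12.15 at 12 d, 13.89, 13.44 and 14.96 at 15 d, 14.23, 15.35 and 14.90 at 18 d, and 14.86, 14.58 and 14.84 at 24 d, against 2.99, 2.90 and 11.51 at 0 d. It passed the background test on all 15 chilled arrays but only on replicate 3 at 0 d, which stood far from the other two. The measured means differed by 8.21. With the dim 0 d arrays raised to the lowest signal above background, the rise was at least 133-fold, at least 643-fold without replicate 3 of 0 d, and at least 64.3-fold or 56.7-fold without replicate 1 or 2. These bounds compare log2 means. The only 0 d array above background had 11.51, against 12.15 on the lowest chilled array, so the rise over that array alone was far smaller. CUST_2192 ran between 6.96 and 8.19 in chilled buds (median 7.60), against 3.68, 4.36 and 6.86 at 0 d. It was above background on 1 of the 0 d arrays, and the same bound was at least 4.57-fold, or at least 7.57-fold without replicate 3 of 0 d. CUST_10010, above background everywhere, ran between 9.80 and 12.10 (median 10.81), against 8.23, 7.38 and 9.38 at 0 d, or 5.48-fold. CUST_8962 was above background on none of the 0 d arrays and on 14 chilled arrays, and was at least 2.43-fold higher in chilled buds.

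Whether the raised level was steady was asked by comparing the chilled times with each other. The 0 d arrays enter these tests only through the spread of the fit to all 18 arrays, and the rule's floor limits how far a chilled array could lie below the others. Over the 5 chilled times the limma moderated F test called 0 of the 158 members, against 0.348% of all probes. At an unadjusted p under 0.05 it gave 34 members (21.5%), against 15.8% of all probes, and the ANOVA of the methods gave 38 (24.1%, against 16.3%). With slide as a fixed block the moderated F gave 16. For this and for the limma counts in other settings below, the share of all probes at an unadjusted p was not counted. A fall in such a count may therefore hold for all probes alike. The members share arrays and are not independent of each other, so these shares are descriptions.

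Between 18 and 24 d together and 6, 12 and 15 d together, 4 members were higher (2.53%, against 0.802% of all probes) and 0 were lower (against 0.929%). At an unadjusted p under 0.05, 33 members were higher (20.9%, against 9.78%) and 3 were lower (1.90%, against 7.24%). The difference was above 0 in 128 members, or 81.0%, against 53.7% of all probes. Its median was small, 0.15 against 0.02 over all probes. The later arrays lay mainly on slides 2 and 3 and the earlier ones on slides 1 and 2. With slide as a fixed block, the median was 0.11 and 0 members were called, among 4 of all probes. A fit to the 15 chilled arrays alone called 0 members, among 152 of all probes. With each array set to its 75th percentile, the median was 0.03, against -0.08 over all probes. The 4 calls also depended on single arrays: the count was 0 to 2 without 11 of the 18 arrays in turn, replicate 2 of 0 d, replicates 1 and 2 of 6 d, replicates 1 and 3 of 15 d and each replicate of 18 and 24 d. Over all probes these fits called 68 to 177, against 259 with every array.

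Of the 4, only CUST_12357, which matches a poplar protein of unknown function, was above background on every array. It had 13.56, 13.72 and 13.79 at 6 d, 13.86, 13.70 and 13.65 at 12 d, 13.91, 14.13 and 13.97 at 15 d, 13.89, 14.19 and 14.60 at 18 d, and 14.59, 14.30 and 14.33 at 24 d. The later arrays were higher but not separate, since replicate 1 of 18 d lay below the 3 arrays of 15 d. The difference was 0.51 with a standard error of 0.11 (limma adjusted p = 0.037). The other calls were on dim probes. CUST_5065 differed by 0.63 ± 0.15 (SE, limma adjusted p = 0.0481) and was above background on all 6 later and 6 of 9 earlier arrays. CUST_10810, with no earlier array above background and replicate 1 of 24 d missing, was at least 1.23-fold higher at 18 and 24 d (limma adjusted p = 0.0473). CUST_14431 was above background on 3 later and 0 earlier arrays, so no fold is given (limma adjusted p = 0.0435).

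Between 24 and 6 d, 0 members passed in either direction, against 0.1% of all probes higher and 0.154% lower. At an unadjusted p under 0.05, 25 were higher (15.8%, against 8.07%) and 5 were lower (3.16%, against 7.85%). The difference was above 0 in 114 members (72.2%, against 51.6%), with a median of 0.19. Among the 157 members measured on all 6 arrays, every 24 d array was above every 6 d array in 34 (21.7%, against 13.6%) and below in 5 (3.18%, against 11.7%). The nearest to the threshold were CUST_12357 with 0.71 (limma adjusted p = 0.0705) and CUST_1198 with 0.95 (limma adjusted p = 0.0992). The 24 and 6 d arrays shared no slide, and with slide as a fixed block the median was 0.01, against -0.03 over all probes. Without replicate 1 of 6 d the median was 0.07, and the unadjusted count in both directions was 18, against 30 with all arrays. That count was 18 and 16 without replicates 2 and 3 of 24 d.

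The steps into and out of 18 d share the 18 d arrays, which enter them with opposite signs, so their directions are not independent. At the release step of the labels, the difference of 18 minus 15 d was above 0 in 121 members (76.6%, against 54.1% of all probes), with a median of 0.22 against 0.03. All 6 of these arrays lay on slide 2. At an adjusted p under 0.05, limma called 0 members, against 0% of probes higher and 0.0201% lower. At an unadjusted p under 0.05, 18 were higher (11.4%, against 4.25%) and 1 was lower (0.633%, against 3.92%). Of 155 members measured on all 6 arrays, 32 had every 18 d array above every 15 d array (20.6%, against 12.2%) and 3 had every one below (1.94%, against 8.83%). The unadjusted count in both directions, 19, was 3 with the 75th percentile, where the median was 0.05 against -0.09 over all probes. Leaving out replicate 1 of 15 d gave 7. Leaving out replicate 1 of 18 d gave 9, and its replicate 2 gave 10.

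For 24 minus 18 d, the difference was below 0 in 122 members (77.2%, against 50.4% of all probes), with a median of -0.24 against -0.002. At an adjusted p under 0.05, limma called 0 members, against 0% of probes in either direction. At an unadjusted p under 0.05, 3 were higher (1.90%, against 5.28%) and 30 were lower (19.0%, against 6.72%). Of 154 members, 45 had every 24 d array below every 18 d array (29.2%, against 10.4%) and 2 had every one above (1.30%, against 8.63%). The unadjusted count in both directions, 33, was 16 without replicate 1 of 18 d and 20 without replicate 1 or 2 of 24 d. With the 75th percentile it was 21, and the median was -0.13 against 0.08. Among named members the smallest adjusted p-values were those of NAT7, with -0.71, and fimbrin, with -0.62 (limma adjusted p = 0.172 for each), and of PAB2 with -0.62 (limma adjusted p = 0.177). In PAB2 the 24 d arrays had 14.70, 14.67 and 14.78, against 15.40, 15.31 and 15.28 at 18 d, so that these arrays did not overlap.

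**Figure D4:**
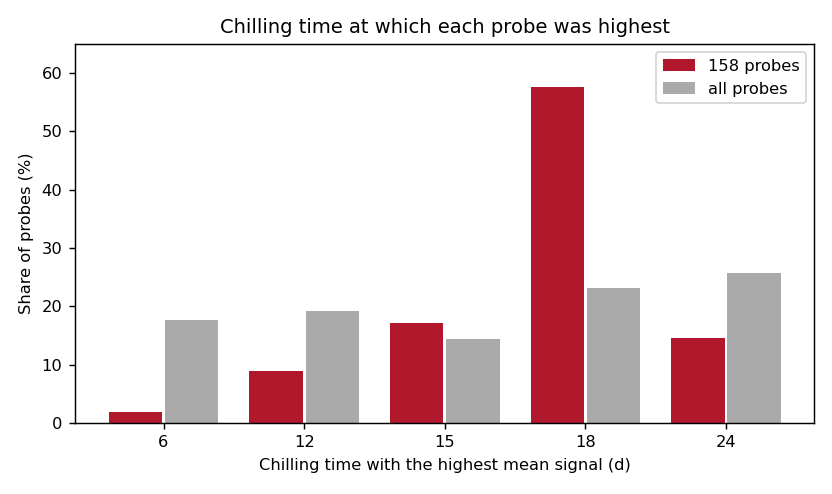
Share of the 158 probes and of all probes (y axis, in percent) whose mean signal among the 5 chilled times was highest at each time (x axis, days). At 18 d stand 57.6% of the 158 probes and 23.2% of all probes.

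By mean signal, 91 of the 158 members (57.6%, against 23.2% of all probes) were highest at 18 d. The others peaked at 6 d (3 members, 1.90%, against 17.6% of all probes), 12 d (14, 8.86%, against 19.3%), 15 d (27, 17.1%, against 14.3%) or 24 d (23, 14.6%, against 25.6%). The lowest chilled time was 6 d in 86 members (54.4%, against 18.8%) and 24 d in 30 (19.0%, against 22.9%). Of the 26 named members 14 were highest at 18 d, among them the 3 proteasome probes, SMC3, fimbrin, the invertase, NRT2.3 and NAT7. RGL1, PAB2 and the amino acid transporter AT1G47670 were highest at 12 d. Of the 112 members above background on every array, 59 (52.7%) were highest at 18 d. The share among all probes above background on every array was not counted. The count depended on the scaling between arrays: with each array set to its 75th percentile it was 46 members (29.1%, against 12.0% of all probes). Without the 18 d arrays in turn it was 77, 93 and 94 (48.7, 58.9 and 59.5%, against 22.4, 25.3 and 25.9% of all probes).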

How the data were processed

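Flower buds were profiled on 18 single-channel Agilent arrays. Per the file headers, the deposited intensity values had been background-subtracted by Feature Extraction and not scaled between arrays. The members were chosen from the value table the authors deposited, log2 signals of 14949 probes after GeneSpring's quantile normalization.

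For all other values, the processed intensities were taken to log2, flagged non-uniform or outlier spots were dropped (233 probes on replicate 3 of 24 d, 4 to 33 on the others), spots were averaged per probe and arrays were quantile-normalized. These values correlated with the deposited ones at 0.9998 or more. The number of arrays limits the precision. No spot was saturated. All 14957 probes and 18 arrays entered a limma 3.58.1 model (R 4.3.3) with a mean for each time, and p-values were adjusted by Benjamini-Hochberg with a threshold of 0.05. The fit was tested on simulated data.

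The members, lists and named genes were chosen with earlier results of these data known. Named are members with a protein name, symbol or category, the largest and those nearest the threshold, and those called. Descriptions came from the supplementary tables, some of them held in part, and no probe sequence was used. Alternatives were other scalings, normexp (offset 50, on the median signal), a filter on dim probes, slide or replicate as a block, arrays left out, other priors and thresholds, and a plain ANOVA modelled on the methods. Same-numbered replicates did not deviate together (mean r = -0.01 over 45 pairs), so the numbers were not taken as pairs.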

Additional observations from a re-analysis of the deposited data

How the results depend on the processing

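All 158 members had a higher mean in chilled than in unchilled buds under each scaling tried, with a smallest difference of 0.14 under normexp. The rule chose the members by this difference on the same arrays, so its sign under other scalings is not independent evidence. Every chilled array stayed above every 0 d array in 90 members with the 75th percentile, 106 without normalization, which put the median of all probes at 0.17, and 111 with normexp. The probes that met the rule numbered 158, against 251 without normalization (106 shared with the 158), 78 with normexp (60 shared), 262 with slide 1 alone (109 shared), 280 at a threshold of 0.6 and 87 at a threshold of 1. Leaving out single arrays gave 152 to 332, with 332 without replicate 2 and 315 without replicate 3 of 0 d.

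Members called between 18 and 24 d and 6, 12 and 15 d numbered 4, among 259 of all probes. The deposited value table gave 2 (of 237), the 75th percentile 1 (of 324) and slide as a random block 1 (of 130). A trended and robust prior gave 1 (of 210), slide as a fixed block 0 (of 4) and the 15 chilled arrays alone 0 (of 152). Without single arrays 0 to 4 were called (of 68 to 426). With the replicate number as a block, 1 was called (of 115), and the block changed no other count of members called at an adjusted p. For 24 against 6 d, normexp gave 2 calls (of 159 among all probes) and the trended and robust prior 1 (of 118), against 0 (of 38). The plain ANOVA over the chilled times, modelled on the methods, gave 38 members at an unadjusted p and 0 after Benjamini-Hochberg. Members highest at 18 d numbered 46 with the 75th percentile (12.0% of all probes) and 77 to 96 without single arrays (21.0 to 25.9% of all probes). These alternatives were chosen for this count after seeing the data, as was the floor for dim 0 d arrays.

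The causes of these changes were not tested. Of the 26 named differences, none changed sign, 10 moved by over 1 SD with normexp (the SMC3-like probe to 0.84, AT1G75170 to 0.25), 4 with slide 1 alone and 3 without normalization. The unchanged sign is not independent evidence either, since the rule chose these members by that difference.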
